A study of Mus musculus with 6 samples.

Results

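The Agilent mouse array used here carried 16181 probes that are named not by a gene but by a stretch of the mm9 genome and a strand, F for forward and R for reverse. In 1 genotype or more, 4101 of these interval probes (25.3%) had a signal well above background on both of its arrays, by the scanner's own flag, and they are the members described here. The members were 4101 of the 24818 probes that passed the same filter, out of 55681 probes that are not controls. They came from 1910 of 3540 intervals (54.0%), and 2005 lay on the forward and 2096 on the reverse strand. The remaining 12080 interval probes did not pass, of which 3106 were above background on no more than 1 array of any genotype and 8974 on no array. A gene-named probe lay inside the interval of 937 members, so not every interval is free of genes, and "interval probe" is used in place of "intergenic". A distance from a gene, given in bp throughout, runs from the interval to the nearest probe named after that gene. The gene itself may lie closer or overlap the interval, which was not looked up.

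The RNA was total RNA of whole pancreas, taken on postnatal day 0.5 from C57BL/6N mice, and was hybridised to 1-colour arrays, 1 array for each of 6 samples. The 3 genotypes had 2 arrays each: the wild type controls Spink3+/+, the knockout Spink3-/-, and Spink3-/-XKI/+, which carries the same homozygous loss of Spink3 together with an allele written XKI. Per the design text, every acinar cell of Spink3-/- undergoes a nonapoptotic death with autophagy, and in Spink3-/-XKI/+ a portion of the acinar cells stays normal. The labels name neither the XKI allele nor separate animals behind the arrays of a genotype, so the p-values speak of the spread among these samples alone, and that spread may be technical. In whole tissue, fewer cells of a type and less RNA per cell cannot be told apart.

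Long intergenic noncoding RNAs are transcripts without a protein product that arise between protein-coding genes, are often spliced and polyadenylated, and are mostly made at low level in few cell types. Some act in the nucleus, where Neat1 builds paraspeckles and Malat1 gathers in nuclear speckles, others host small RNAs, and for most no role is known. Many were first mapped as intervals that carry chromatin marks of active transcription, which leave the direction of transcription unsettled. A probe in such an interval can also detect an unannotated end of a neighbouring gene.

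The 3 probes of the interval chr5:152006587-152008784 on the reverse strand are shown first because all 3 were members and all 3 were at background in Spink3-/- alone. Each sequence is the probe of 60 bases as the files give it, 5′ to 3′ along the named strand, on mm9.
chr5:152006609-152006668 reverse: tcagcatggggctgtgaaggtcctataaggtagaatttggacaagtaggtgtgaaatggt
chr5:152006725-152006784 reverse: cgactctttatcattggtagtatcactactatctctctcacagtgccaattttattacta
chr5:152006785-152006844 reverse: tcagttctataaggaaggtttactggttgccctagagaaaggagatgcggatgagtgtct
The pair from chr5:74340084-74346709 on the forward strand abuts base to base, and only the second of them was a member, with the lowest adjusted p among members in Spink3-/- minus Spink3+/+.
chr5:74342324-74342383 forward: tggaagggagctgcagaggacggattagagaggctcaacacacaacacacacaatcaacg
chr5:74342384-74342443 forward: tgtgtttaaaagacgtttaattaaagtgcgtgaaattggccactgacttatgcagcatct

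A further pair of sets bears on how far a single probe speaks for its interval. From chr4:132897264-132910714 on the reverse strand, a member and a probe at background on all 6 arrays have 57 of their 60 bases in common, which are in capitals.
chr4:132908756-132908815 reverse, member: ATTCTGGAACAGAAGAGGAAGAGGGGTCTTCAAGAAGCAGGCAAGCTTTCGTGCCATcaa
chr4:132908759-132908818 reverse, at background: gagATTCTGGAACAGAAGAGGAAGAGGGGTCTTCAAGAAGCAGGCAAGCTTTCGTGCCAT
From chr16:89961600-89971725 on the forward strand, 3 probes each hold the same stretch of 34 bases, in capitals, and only the second was a member.
chr16:89963505-89963564 forward: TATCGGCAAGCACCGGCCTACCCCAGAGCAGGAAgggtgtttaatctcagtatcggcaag
chr16:89963529-89963588 forward, member: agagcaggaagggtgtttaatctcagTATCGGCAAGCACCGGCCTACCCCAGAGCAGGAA
chr16:89963545-89963604 forward: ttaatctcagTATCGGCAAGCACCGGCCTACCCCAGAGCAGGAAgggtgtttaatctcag

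The reverse-strand interval chr19:5834117-5835940 lies 6624 bp from the probe of Neat1, and its 3 members were higher in Spink3-/- than in the other genotypes.
chr19:5834543-5834602 reverse: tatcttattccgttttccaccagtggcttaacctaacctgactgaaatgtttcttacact
chr19:5834603-5834662 reverse: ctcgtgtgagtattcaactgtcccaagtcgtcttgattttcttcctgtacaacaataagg
chr19:5834857-5834916 reverse: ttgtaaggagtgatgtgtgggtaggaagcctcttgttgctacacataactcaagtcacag
The last set holds the 5 members with the highest mean level, with each CCGCC in capitals.
chr12:73862399-73862458 forward: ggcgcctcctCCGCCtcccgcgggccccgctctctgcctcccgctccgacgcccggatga
chr19:5802130-5802189 reverse: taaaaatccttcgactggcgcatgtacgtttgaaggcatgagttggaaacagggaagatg
chr4:94822842-94822901 forward: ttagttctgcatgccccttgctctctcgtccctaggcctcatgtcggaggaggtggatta
chr2:31716913-31716972 forward: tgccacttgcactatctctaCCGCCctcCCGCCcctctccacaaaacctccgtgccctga
chrX:18814996-18815055 forward: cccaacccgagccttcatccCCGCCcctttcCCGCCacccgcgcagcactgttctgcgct

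A level is given throughout as the log2 processed signal minus the 75th percentile of its own array, so that 0 is that percentile, which lay between 111 and 155 signal units. The Spink3 probe set Spink3+/+ apart from the genotypes labelled as lacking it, since it stood at 9.84 and 10.26 in Spink3+/+, at 3.25 and 2.95 in Spink3-/- and at 2.64 and 2.34 in Spink3-/-XKI/+. The labels of the latter genotypes were not checked against each other, as no probe was assigned to the XKI allele. Pancreas was borne out by its markers, with 18 of 18 acinar enzyme genes above background and a summed acinar level of 14.2 to 14.6 on every array, and a summed islet level of 11.3 to 11.6. Markers of liver also moved with a genotype: 14 of 14 were higher in Spink3-/- than in Spink3+/+ (median difference 1.74, none called), with summed levels of 5.99 and 6.33 in Spink3+/+, 7.01 and 6.91 in Spink3-/-, and 6.17 and 6.49 in Spink3-/-XKI/+. All 7 tested erythroid genes were lower in Spink3-/-, with summed levels of 10.22 and 9.12 in Spink3+/+, 9.24 and 9.13 in Spink3-/-, and 8.78 and 8.45 in Spink3-/-XKI/+. All 5 tested genes of striated muscle were higher in both genotypes without Spink3 (none called), with summed levels of 1.24 and 1.77 in Spink3+/+, 2.23 and 1.93 in Spink3-/-, and 1.83 and 2.98 in Spink3-/-XKI/+. Summed duct levels were 8.62 and 8.57 in Spink3+/+, 8.84 and 9.31 in Spink3-/-, and 8.50 and 8.99 in Spink3-/-XKI/+. Of the 9 tested duct genes, however, only 4 were higher in Spink3-/- (median difference -0.0046). Summed levels of neutrophils and macrophages were 7.22 and 7.68, 6.86 and 7.13, and 7.25 and 7.11 in the same order. Of these 13 tested genes, 5 were higher in Spink3-/-. What part any of these lists had in a result on the members was not tested. By the barcodes in the file headers the 6 arrays shared 1 slide. The last barcode fields were read as row and column, which the headers do not spell out. So read, both Spink3+/+ arrays and the first Spink3-/- array lay in 1 row of the slide, and the other 3 in another.

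Interval probes were detected less often than probes of other names. Both arrays were above background for 3226 interval probes (19.9%) in Spink3+/+, 3299 (20.4%) in Spink3-/- and 3957 (24.5%) in Spink3-/-XKI/+. Among the 39500 other probes the same shares were 47.4%, 46.7% and 51.4%. Spink3-/-XKI/+ thus had the highest share in both classes, and its first array also had the lowest background of the 6: the lowest level still above background was -3.01 and -2.61 there, -2.22 and -2.65 in Spink3+/+, and -2.77 and -2.13 in Spink3-/-. Counted array by array, 3805 and 4290 interval probes were above background in Spink3+/+, 4572 and 3761 in Spink3-/-, and 5021 and 4485 in Spink3-/-XKI/+, so the arrays of Spink3-/- lay apart and overlapped with those of Spink3+/+.

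Most members, 2980 of 4101 (72.7%), were above background in all 3 genotypes, against 85.7% of the other probes that passed. Another 565 (13.8%) passed through Spink3-/-XKI/+ alone, 70 through Spink3+/+ alone and 65 through Spink3-/- alone. A further 245 passed in both genotypes without Spink3, 167 in Spink3+/+ and Spink3-/-XKI/+, and 9 in Spink3+/+ and Spink3-/-. A member that passed through a single genotype had to be brighter there, so these counts are no measure of change. At the edge of the filter, the dimmest member had a mean level of -2.71 in its brightest genotype, and the brightest interval probe left out had -0.29 in its own.

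Among the 1067 intervals with probes on both strands, 414 had members on both, 221 on the forward strand alone, 218 on the reverse strand alone and 214 on neither. The share of interval probes that were members ran from 18.1% on chromosome 9 to 32.1% on chromosome 17. Members and the remaining interval probes had the same median GC content, 45%, and lay within 10 kb of a gene-named probe about equally often, 49.7% against 47.5%. Intervals were 62 to 7128487 bp long with a median of 7315.5 bp, and those with a member had a median of 10606 bp.

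The mean level of members over the 6 arrays ran from -4.01 to 10.10 with a median of -0.89, and 1288 (31.4%) were above 0. Only 102 exceeded a level of 5. The median SD between the arrays of a genotype was 0.245 for members above background on all 6 arrays and 0.203 for the 17756 other such probes, so members were measured slightly less precisely.

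The 5 members with the highest signal showed no difference between genotypes that passed the test. A signal also depends on the probe, so this ranking orders signals and not amounts of transcript. The interval chr12:73838608-73862621 lies 29084 bp from the nearest probe of Ppm1a, a protein phosphatase gene. Its forward-strand member was at 9.91 and 10.06 in Spink3+/+, 9.83 and 10.41 in Spink3-/-, and 10.07 and 10.30 in Spink3-/-XKI/+. The member of chr19:5801802-5802597, 6030 bp from the probe of Malat1, was at 9.99 and 9.80, 9.87 and 10.08, and 9.64 and 9.76 in the same order. For both, the arrays of Spink3-/- and Spink3+/+ overlapped. The member of chr4:94742359-94822969, 25372 bp from Jun, a stress-responsive transcription factor gene, was at 9.59 and 9.74, then 9.50 and 10.07, then 9.77 and 9.97. The lowest of all adjusted p-values of the 5 (limma) was 0.86.

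High members were rich in G and C. Over the 20 highest, the median GC content was 60.8% (35% to 88.3%), and 10 of 20 held the motif CCGCC, against 3.19% of members, 1.22% of interval probes and 1.16% of all probes, which have the same length. The reverse complement GGCGG was in 0 of the 20 and in 2.73% of members. The longer CCCGCC, which contains the first motif, was in 8 of the 20 and in 1.37% of members. Across the 4101 members GC content and mean level had r = 0.22, a description over probes that share the same 6 arrays. The motif was chosen after these levels were seen, and a match says nothing of what is bound.

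GC content also went with the array. Over the members above background on all 6 arrays, each set against its own mean, the 182 probes with 65% GC or more had a median of -0.19 and -0.05 in Spink3+/+, -0.19 and 0.25 in Spink3-/-, and -0.03 and 0.21 in Spink3-/-XKI/+. The second Spink3-/- array and the second Spink3-/-XKI/+ array were therefore high and the first Spink3-/- array low, so arrays of 1 genotype lay apart. Probes with 35% to 40% GC lay within 0.04 of 0 on every array. The difference Spink3-/- minus Spink3+/+ moved with it, from a median of -0.0018 in that lowest class to 0.14 in the highest.

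**Figure D1:**
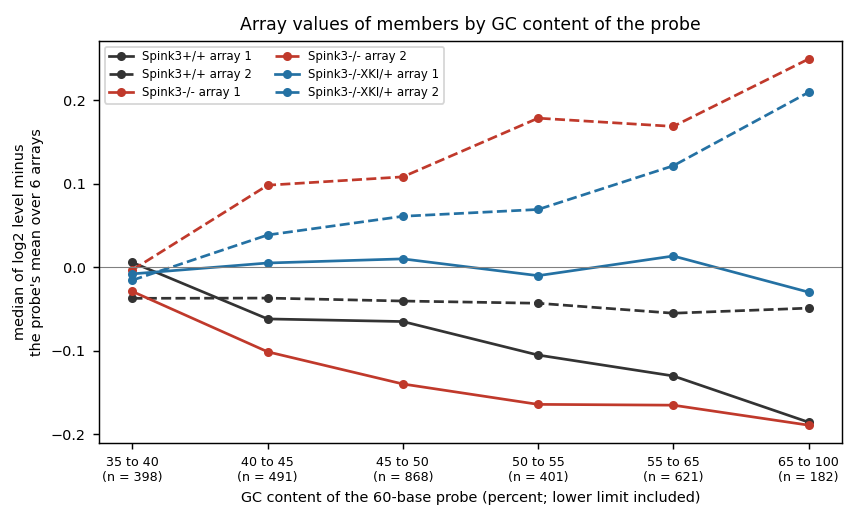
Median over members of the log2 level minus the probe's mean over 6 arrays (y axis), by GC content of the probe in percent (x axis), 1 line per array, for members above background on all 6 arrays. The lines lie within 0.04 of 0 at 35% to 40% GC and spread to between -0.19 and 0.25 at 65% or more, with the arrays of Spink3-/- at the opposite ends.

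Few members differed between genotypes beyond the spread of the arrays. In Spink3-/- minus Spink3+/+, 6 members were called at an adjusted p under 0.05 (limma, Benjamini-Hochberg over all 24818 probes), 1 higher and 5 lower. Over all probes 11 were called, a background of 0.0443%. In Spink3-/-XKI/+ minus Spink3+/+, 1 member was called, lower, against a background of 0.00806% over all probes. In Spink3-/-XKI/+ minus Spink3-/- the limma fit called 0 members and 0 probes in all (0%), the lowest adjusted p of a member being 0.0942, and 250 members had an unadjusted p under 0.05. Both genotypes without Spink3 together, minus Spink3+/+, gave 4 members, all lower, against 0.0282% over all probes. Of the 2980 members above background on all 6 arrays, 0 were called in any of the 4 comparisons, so each called member was at background in at least 1 genotype. Of all 20736 such probes, 1, 1, 0 and 1 were called in the order of the comparisons above, so calls were rare there for any probe. Of the 6 members called in any comparison, 5 passed the filter through 1 genotype alone and so had to be higher there. The other passed only through Spink3+/+ and Spink3-/-XKI/+, where it was higher, and was at background in Spink3-/-. The values and p-values of all 6 are given as a description and are no support for a change. With no filter limma called 0 of the 16181 interval probes, and the count over all probes of that fit is not given here. Of the 6 calls in Spink3-/- minus Spink3+/+, 0 were kept when any 1 of the 6 arrays was left out, although 1 other member was then called without the second Spink3+/+ array and 2 others without the first Spink3-/- array. The call in Spink3-/-XKI/+ minus Spink3+/+ was kept without either Spink3-/- array and lost without any 1 of the other 4 arrays. Of the 4 calls for both genotypes together, 1 was kept without the second Spink3+/+ array, 1 without the first and 2 without the second Spink3-/- array, and 0 without the first Spink3+/+ array or either Spink3-/-XKI/+ array. The fold of a called member is given as a lower bound, which sets the mean of the bright group against the higher, array by array, of the dim probe's own level and the lowest level above background.

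The deepest fall was in the member of chr5:152006587-152008784 at chr5:152006609-152006668, whose sequence opens the first set. Its level was 0.94 and 0.01 in Spink3+/+, -4.89 and -4.25 in Spink3-/-, and 0.00 and 0.78 in Spink3-/-XKI/+. It was thus at background in Spink3-/- alone, while Spink3-/-XKI/+ overlapped Spink3+/+. The difference Spink3-/- minus Spink3+/+ was -5.05 (SE 0.42, limma adjusted p = 0.0477), at least 7.61-fold lower. Spink3-/-XKI/+ was at least 7.16-fold higher than Spink3-/-, a difference of 4.96 that did not pass (limma adjusted p = 0.0942).

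The other members of this interval were likewise lower in Spink3-/- than on any other array. The probe at chr5:152006725-152006784 was at -0.35 and -1.49 in Spink3+/+, -4.80 and -4.21 in Spink3-/-, and -1.25 and -0.64 in Spink3-/-XKI/+. That at chr5:152006785-152006844 was at -0.10 and -1.58, then -4.88 and -4.28, then -1.23 and 0.13. Both were at background on the Spink3-/- arrays only, with differences to Spink3+/+ of -3.59 and -3.74 that did not pass alone (limma adjusted p = 0.144 and 0.379). These 3 probes share no base, although the latter pair abuts, and the interval has no probe on the forward strand. Among the called members this was the only interval where companions on the same strand were members and moved likewise. These companions, too, passed the filter only through Spink3+/+ and Spink3-/-XKI/+, where they were higher. The nearest gene-named probe, of the lncRNA 5430435K18Rik at 53480 bp, was at background on all 6 arrays, from -5.18 to -4.35.

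The remaining calls rest on single probes. The member at chr5:74342384-74342443 was at -0.58 and -0.61 in Spink3+/+, -5.06 and -4.41 in Spink3-/-, and -5.30 and -4.90 in Spink3-/-XKI/+. Its Spink3+/+ arrays lay close together, and all 4 arrays without Spink3 were at background. The differences were -4.14 (SE 0.27, limma adjusted p = 0.0438, at least 3.62-fold) for Spink3-/- and -4.51 (limma adjusted p = 0.0332, at least 4.64-fold) for Spink3-/-XKI/+. The abutting probe of the same strand was at background on all 6 arrays, with a difference Spink3-/- minus Spink3+/+ of 0.33. Its nearest gene-named probe, for the deubiquitinase gene Usp46 at 49780 bp, differed by -0.24.

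Another 3 members showed the same pattern of a signal in Spink3+/+ alone. The member of chr1:193755364-193770539, forward, 18545 bp from the zinc exporter gene Slc30a1, was at -1.09 and -0.58 in Spink3+/+, -4.95 and -4.30 in Spink3-/-, and -5.19 and -4.77 in Spink3-/-XKI/+. Its difference of -3.79 in Spink3-/- (limma adjusted p = 0.0477) was at least 3.07-fold, and none of its 4 companions on the strand was a member. The member of chr14:46374363-46612845, reverse, was at -0.74 and -0.96, then -4.94 and -4.14, then -5.18 and -4.76. Its difference was -3.69 in Spink3-/- (limma adjusted p = 0.0477, at least 3.03-fold). Its nearest gene-named probe belongs to Ddhd1, a phospholipase gene, at 161377 bp. The member of chr8:40100925-40196350, reverse, in an interval that holds a probe of Tusc3, a gene of N-glycosylation in the endoplasmic reticulum, was at -1.05 and -1.48, then -4.70 and -4.11, then -4.45 and -4.53. Its difference was -3.14 (limma adjusted p = 0.0477, at least 2.27-fold), and the Tusc3 probe, on the other strand, differed by -0.33.

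The only called member that was higher in Spink3-/- was that of chr18:5808025-5818625 on the reverse strand, 33353 bp from Zeb1, a repressor of epithelial genes. It was at -4.14 and -4.54 in Spink3+/+, -1.39 and -0.83 in Spink3-/-, and -4.96 and -4.57 in Spink3-/-XKI/+, above background in Spink3-/- alone. The difference Spink3-/- minus Spink3+/+ was 3.23 (SE 0.28, limma adjusted p = 0.0477, at least 2.51-fold). Its 3 companions on the strand, of which 1 was a member, differed by -0.39 to 0.08, and the Zeb1 probe by -0.06. None of the 11 calls named in the 4 comparisons remained with the row of the slide as a block, with normexp background correction or with no filter on dim probes.

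**Figure D2:**
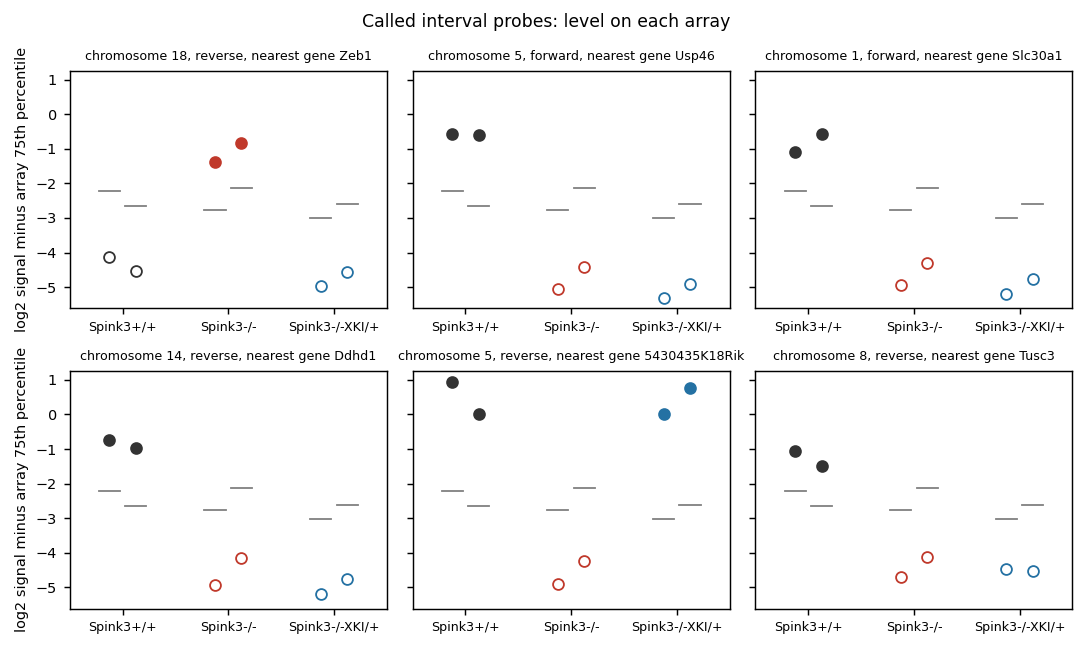
Level of each called member (y axis, log2 signal minus the array's 75th percentile) on the 6 arrays, grouped by genotype (x axis), with 1 panel per member. Filled points are above and open points at or under the lowest level above background of their array, drawn as a grey line, and only the member nearest 5430435K18Rik is above it in both Spink3+/+ and Spink3-/-XKI/+.

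**Figure D3:**
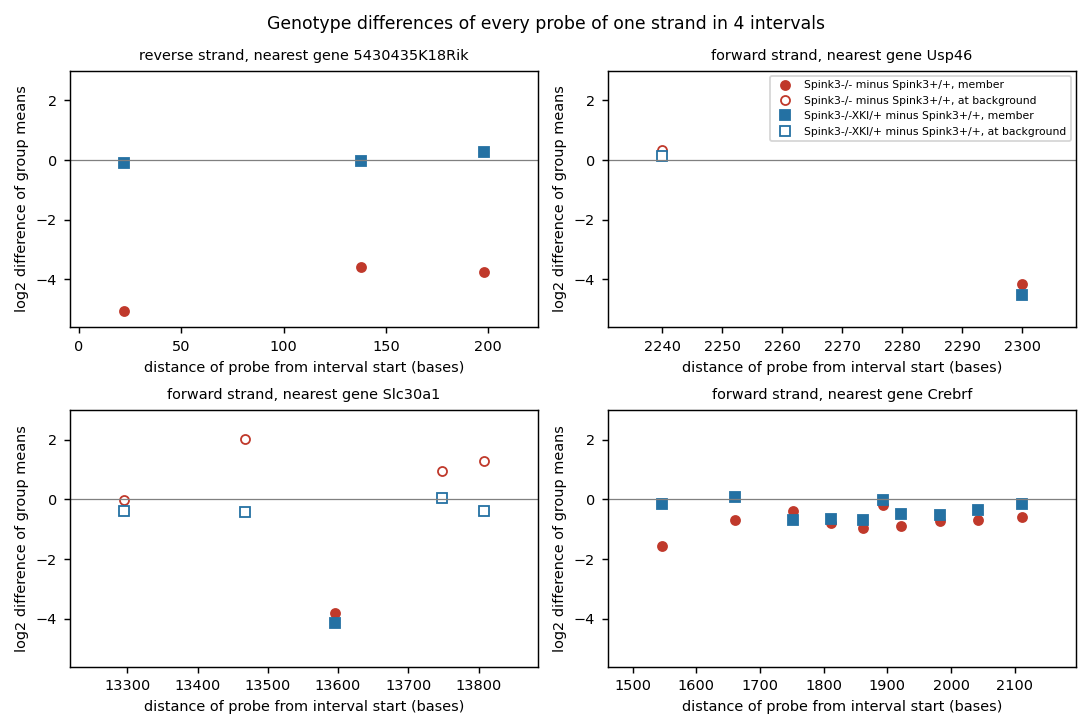
Difference of group means (y axis, log2) against distance of the probe from the start of its interval (x axis, bases) for every probe of 1 strand in 4 intervals, filled for members and open for probes at background, red for Spink3-/- and blue for Spink3-/-XKI/+ minus Spink3+/+. Beside 5430435K18Rik all 3 probes are between -5.05 and -3.59 in Spink3-/-, whereas beside Usp46 and Slc30a1 only the called member is low.

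The remaining members named by the size of their difference were not called. For rises in Spink3-/- minus Spink3+/+, the forward-strand member of chr1:85323303-85337483 was at -4.53 and -4.96 in Spink3+/+, 0.48 and -1.74 in Spink3-/-, and -5.32 and -4.91 in Spink3-/-XKI/+. Its Spink3-/- arrays lay far apart, and the difference of 4.12 had a limma adjusted p of 0.373. The second of the 3 chr16 probes printed above was at -3.02 and -3.07, then 0.67 and 0.42, then -2.92 and -1.46. It was above background on 3 arrays and its difference was 3.59 (limma adjusted p = 0.165, at least 7.92-fold), while the probes that share its stretch of 34 bases were above background on 0 and 1 array. The reverse-strand member of chr6:126445920-126446242, 36331 bp from the potassium channel gene Kcna5, was at -4.15 and -4.60, then -2.41 and 0.19, then -5.02 and -4.60 (difference 3.27, limma adjusted p = 0.724).

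Differences against arrays at background have no order beyond their lower bounds, and so the rises in Spink3-/-XKI/+ are not ranked here. The forward-strand member of chr12:55401761-55418611 was at -4.35 and -4.79 in Spink3+/+, -4.93 and -4.28 in Spink3-/-, and -0.44 and -1.94 in Spink3-/-XKI/+ (difference to Spink3+/+ 3.38, limma adjusted p = 0.261, at least 2.37-fold). The reverse-strand member of chr3:95460633-95461443, 4100 bp from Mcl1, a gene of a survival protein of the Bcl-2 family, was at -2.95 and -3.01, then -3.13 and -2.36, then 0.12 and 0.49. Its difference to Spink3+/+ was 3.28 (SE 0.29, limma adjusted p = 0.0707), at least 6.68-fold, and its only companion on the strand was no member. The member of chr10:62267317-62269871, 4577 bp from the 5-methylcytosine dioxygenase gene Tet1, was at -4.22 and -4.91, then -3.47 and -4.40, then -2.60 and -0.93 (difference 2.80, limma adjusted p = 0.419). The member of chr5:120269342-120279542 was at -4.49 and -4.74, then -4.46 and -3.38, then -1.59 and -2.0 (difference 2.82, limma adjusted p = 0.181). All 4 were above background in Spink3-/-XKI/+ alone, and none passed.

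Among falls that did not pass, the chr4 member whose 57 shared bases are printed above was at 0.20 and -0.89 in Spink3+/+, -1.31 and -4.06 in Spink3-/-, and -4.92 and -4.51 in Spink3-/-XKI/+. Its difference Spink3-/-XKI/+ minus Spink3+/+ was -4.37 (limma adjusted p = 0.379, at least 5.52-fold). The partner probe was at -4.35 and -4.77, then -4.58 and -2.80, then -5.17 and -4.76, so 57 shared bases did not bring it above background on any array. The member of chr8:20020266-20021248, forward, was at 0.88 and -2.11, then -4.89 and -4.24, then -5.13 and -4.71. Its Spink3+/+ arrays lay far apart, and the difference of -3.95 in Spink3-/- had a limma adjusted p of 0.72. The member of chr8:35143801-35144482, 9173 bp from the dynactin gene Dctn6, was at -1.57 and 0.01, then -4.59 and -4.03, then -4.94 and -4.49, a difference of -3.73 for both genotypes without Spink3 (limma adjusted p = 0.196).

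Between the genotypes without Spink3, the reverse-strand member of chr12:88154776-88184372, 37296 bp from Irf2bpl, was at -4.33 and -4.13 in Spink3-/- and -2.53 and 0.34 in Spink3-/-XKI/+, and at -4.18 and -1.0 in Spink3+/+, a difference of 3.13 (limma adjusted p = 0.745). In the opposite direction, the reverse-strand member of chr8:124355710-124401160, 3976 bp from the amino acid transporter gene Slc7a5, was at -2.24 and -1.18 in Spink3-/- and -5.29 and -4.76 in Spink3-/-XKI/+, with -4.43 and -2.32 in Spink3+/+ (difference -3.32, limma adjusted p = 0.474). The member of chr16:25523780-25524279 was at -2.10 and 0.79 in Spink3-/-, -3.07 and -4.73 in Spink3-/-XKI/+ and -3.35 and -4.00 in Spink3+/+ (difference -3.25, limma adjusted p = 0.64). In all 3 the arrays of the brighter genotype lay more than 1 unit apart.

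Rises shared by both genotypes without Spink3 were smaller, and none was called. The reverse-strand interval chr15:61984389-62102500, inside which lie probes of Pvt1 and of the pseudogene Macroh2a3, held 2 of the members named by size. One was at 1.71 and 2.07 in Spink3+/+, 3.91 and 2.62 in Spink3-/-, and 2.34 and 4.70 in Spink3-/-XKI/+, above background on all arrays, with a difference of 1.5 (limma adjusted p = 0.886). The other was at -4.19 and -3.81, then -0.90 and -0.76, then -3.59 and -2.75, a rise of 3.17 in Spink3-/- (limma adjusted p = 0.0799, at least 3.05-fold). The member of chr16:34524589-34573439 was at -2.70 and -3.14, then 1.08 and -1.77, then -2.17 and -1.27 (difference 1.89, limma adjusted p = 0.835). The member of chr9:13281056-13281599 was at -1.95 and -1.91, then -1.45 and -1.69, then -1.72 and 2.78, so a single array stood apart in its difference of 1.41 (limma adjusted p = 0.907). The forward-strand member of chr11:3538125-3554450, opposite to Tug1, was at -2.22 and -2.71, then -2.09 and 2.73, then -1.97 and -1.76, and its difference of 1.70 turned to -1.93 with the row of the slide as a block.

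An autophagy gene lay inside 1 of the named intervals. The forward-strand member of chr18:78190463-78235438 shares its interval with a probe of Epg5, whose product is needed for autophagosomes to fuse with lysosomes, on the same strand. The member was at -2.87 and -3.52 in Spink3+/+, -2.45 and -1.77 in Spink3-/-, and -2.45 and 0.19 in Spink3-/-XKI/+, a difference of 1.58 for both genotypes without Spink3 (limma adjusted p = 0.882). The Epg5 probe was at -1.17 and -1.01, then -1.30 and -0.67, then -1.69 and -1.95, and went the other way in Spink3-/-XKI/+. A member of chr18:77968421-77972209, in an interval with the lncRNA A330094K24Rik, was above background in Spink3-/-XKI/+ alone, at -1.86 and -0.83 (difference to Spink3+/+ 2.49, limma adjusted p = 0.295).

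Several members of 1 interval give repeated readings of what may be 1 transcript. When the members of each interval and strand were averaged, 2324 such means entered the fit in place of single probes. Limma then called 4 lower in Spink3-/- and 1 lower in Spink3-/-XKI/+ against Spink3+/+, each of an interval with 1 member, against 9 and 2 calls over all 23041 features of that fit (0.0391% and 0.00868%). The lowest adjusted p of a mean over several members was 0.148, 0.175 and 0.171 in Spink3-/- minus Spink3+/+, Spink3-/-XKI/+ minus Spink3+/+ and Spink3-/-XKI/+ minus Spink3-/-. Of 474 interval strands with 3 or more members, 24, 31 and 25 had every member on the same side of 0 with arrays of the genotypes compared that did not overlap. Over all tested probes, taken singly and in either direction, the arrays did not overlap for 32.1%, 41.7% and 32.4%. That share gives no expectation for strands with several members. The intervals in the next paragraphs were chosen from the strands so counted and from the intervals with most members. They were chosen after the values were seen, so their differences are a description with no test.

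The 3 members of chr19:5834117-5835940 lay near the probe of Neat1, the scaffold of paraspeckles. Whether this interval is part of the Neat1 RNA was not looked up. Its members had median levels of -0.28 and 0.19 in Spink3+/+, 1.26 and 0.56 in Spink3-/-, and -0.54 and 0.14 in Spink3-/-XKI/+. All 3 were higher in Spink3-/- than on any array of the others, by 0.72 to 0.95 over Spink3+/+ and by 1.01 to 1.16 over Spink3-/-XKI/+. Without the first Spink3-/- array the median difference to Spink3+/+ was 0.45 in place of 0.76. The probe named Neat1, on the same strand, was at 5.27 and 4.30, then 6.11 and 4.81, then 5.12 and 5.50, and its arrays overlapped. A wider interval on that strand, chr19:5771425-5848475, had 1 member, which differed by 0.28 in Spink3-/- and -0.48 in Spink3-/-XKI/+. On the same chromosome, the 3 members of chr19:5801802-5802597 lay near the probe of Malat1. Whether they are part of the Malat1 RNA was not looked up either. They were lower in Spink3-/-XKI/+, with medians of 7.93 and 7.79, then 7.97 and 7.77, then 7.61 and 7.42. Their median difference was -0.35 to Spink3+/+ and -0.36 to Spink3-/-, while the 3 members of chr19:5798135-5800557 on the same strand ran from -0.22 to 0.04 against Spink3+/+. The Malat1 probe went the same way, by -0.62 and -0.98, which did not pass in the limma fit (adjusted p = 0.748 and 0.60).

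The forward strand of chr17:26911397-26917047, 2110 bp from Crebrf, a regulator of the endoplasmic reticulum stress response, had 10 members of 10 probes. All 10 were lower in Spink3-/- than in Spink3+/+, by 0.17 to 1.54 with a median difference of -0.71, and 8 did not overlap. Their median levels were 0.71 and -0.15 in Spink3+/+, -0.45 and -0.79 in Spink3-/-, and 0.13 and -0.63 in Spink3-/-XKI/+. The first array of Spink3+/+ stood above the rest, and without it the median difference was -0.29, against -1.13 without the second. The Crebrf probe was above background on 4 arrays and had a difference of -0.03.

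The forward strand of chr12:110944403-110988678 holds Mirg, a noncoding host of microRNAs that is expressed from the maternal copy of the imprinted Dlk1-Dio3 region, and had 10 members of 10 probes. Of these, 9 were higher in Spink3-/- and 9 in Spink3-/-XKI/+ than in Spink3+/+, with median differences of 0.47 and 0.63. The median levels were -1.68 and -1.76 in Spink3+/+, -1.10 and -1.08 in Spink3-/-, and -0.72 and -0.80 in Spink3-/-XKI/+, so on this median the genotypes did not overlap. The 2 probes named Mirg were also higher, by 0.65 and 0.55 in Spink3-/- and by 0.37 and 0.62 in Spink3-/-XKI/+. None passed (the lowest limma adjusted p of the 10 members was 0.514).

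At chr5:35975265-35982561, 18991 bp from Acox3, a gene of peroxisomal fatty acid oxidation, both strands had 4 members of 4 probes. The forward strand had medians of 0.05 and 0.11 in Spink3+/+, -0.15 and -0.73 in Spink3-/-, and -1.35 and -0.82 in Spink3-/-XKI/+, and all 4 members were lower in Spink3-/-XKI/+ by 0.82 to 1.34. The reverse strand went the same way with less amplitude, by 0.32 to 0.65. With the row of the slide as a block the forward median difference was -0.39 in place of -1.01. The 3 Acox3 probes differed by -0.20 to 0.56 in Spink3-/-XKI/+.

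A dip in Spink3-/- alone was seen in 2 more intervals. The 3 forward-strand members of chr13:98062189-98066613, 39391 bp from the actin-binding protein gene Enc1, had medians of -0.20 and -1.0 in Spink3+/+, -1.57 and -1.98 in Spink3-/-, and -0.44 and -0.34 in Spink3-/-XKI/+. All 3 were lower in Spink3-/- than in Spink3+/+, by 0.99 to 1.30, and Spink3-/-XKI/+ was higher than Spink3-/- by 0.76 to 1.68. The 3 reverse-strand members of chr10:41368681-41393645, 45099 bp from Cep57l1, had medians of -1.49 and -2.03, then -3.04 and -2.38, then -1.56 and -1.47, and none was above background on all 6 arrays. Under the normexp correction the median differences to Spink3+/+ shrank to -0.51 and -0.27, with the sign kept.

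**Figure D4:**
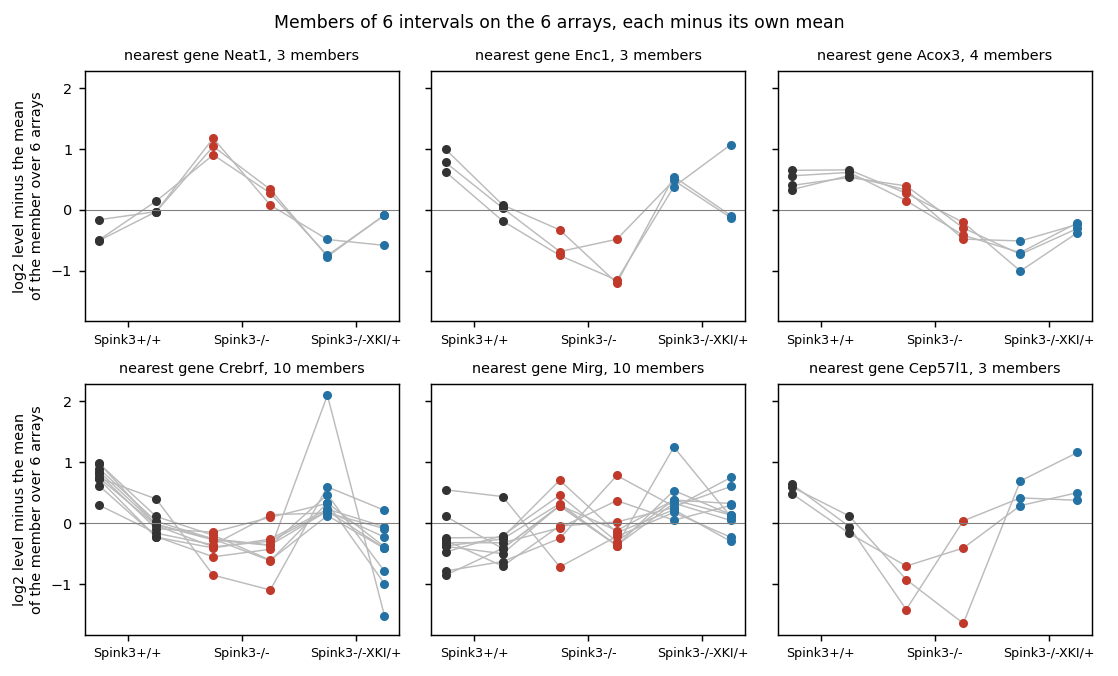
Level of each member minus its own mean over 6 arrays (y axis, log2) on the 6 arrays (x axis, by genotype), with lines joining the values of 1 member, for 1 strand of 6 intervals. The 3 members near the probe of Neat1 are high on both Spink3-/- arrays. Of the 10 members near the probe of Crebrf, 9 are highest on the first Spink3+/+ array.

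Members that rose together in Spink3-/-XKI/+ included the 3 of chr18:61809278-61825191, reverse, 24791 bp from Il17b, a cytokine gene. Their medians were 1.23 and 1.09 in Spink3+/+, 2.00 and 1.30 in Spink3-/-, and 2.08 and 2.57 in Spink3-/-XKI/+, with differences to Spink3+/+ of 0.92 to 1.16. The 3 forward members of chr18:36452279-36454825, an interval that holds probes of Pura, a gene of a single-stranded nucleic acid binding protein, differed by 0.55 to 0.65. A probe named Pura with the same 60 bases as 1 of them differed by 0.45. The other tested probes named Pura differed by 0.17, 0.62 and 0.58, with 0.17 on the brightest. None of these members passed (lowest limma adjusted p 0.537 and 0.60).

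The interval with the most members, 14 of 20 probes, was chr5:74487385-74497428, which holds Dancr, a host of small nucleolar RNAs. All 10 forward probes, on the strand of Dancr, were members and 4 of 10 on the other strand. The forward medians were 0.62 and 0.71 in Spink3+/+, 0.88 and 0.53 in Spink3-/-, and 0.58 and 0.70 in Spink3-/-XKI/+, and the median differences to Spink3+/+ were 0.03 and -0.04. Then followed 3 intervals with 12 members each: that of Mirg, chr17:46972160-46997919 nearest to Tbcc, a tubulin folding cofactor gene, and chr7:16584852-16657252 nearest to Zfp541. In the latter pair the median differences in Spink3-/- were 0.04 and 0.16. The 8 intervals tied next had 11 members each, and none of these 12 intervals held a called member.

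Of the 40 long noncoding RNAs listed by name, 19 had an interval within 10 kb of a probe of theirs. On the strand of the named RNA 79 of 151 interval probes were members (52.3%), and on the opposite strand 47 of 130 (36.2%). Limma called 0 of these members in any comparison. Norad, which binds Pumilio proteins, had 3 members of 3 probes in chr2:156213798-156216885, lower in Spink3-/- by 0.35 to 0.47, while the 4 probes named after it differed by -0.63 to 0.05. Near Mir17hg, the host of the miR-17-92 cluster, 6 of 7 probes on its strand in chr14:115423660-115463160 were members, with median differences of 0.31 in Spink3-/- and 0.20 in Spink3-/-XKI/+. The members of chr14:115366426-115441225 and chr14:115443612-115445950 on that strand had medians of 0.18 and 0.35 in Spink3-/-, and of 0.28 and -0.13 in Spink3-/-XKI/+. Near Gas5, which is induced when growth stops, the 2 members of chr1:162965309-162970704 on its strand had a median difference of 0.73 in Spink3-/- and -0.08 in Spink3-/-XKI/+. The single member of the overlapping interval chr1:162965001-162966376 on the same strand differed by 0.58 and 0.70. On the strand of Tug1, 3 intervals had 3 members each. Those of chr11:3542140-3546888 differed by -0.47 to -0.03 in Spink3-/- and by -0.32 to 0.19 in Spink3-/-XKI/+. Those of chr11:3539787-3548811 ran from -0.91 to 0.91 and from -0.60 to 0.31. Those of chr11:3548300-3549676 ran from -0.82 to 0.11 and from -0.02 to 0.96, so members near probes of this RNA went both ways.

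Pairs of neighbouring or matching probes were set side by side for how far they moved together. For pairs above background on all 6 arrays, the differences Spink3-/- minus Spink3+/+ had r = 0.36 over 1918 pairs of members from the same interval and strand that share under 30 bases. Members on opposite strands of an interval had r = 0.09 over 1184 pairs. A member and the nearest gene-named probe that passed the filter, on either strand, had r = 0.11 over 2536 pairs, and 0.19 over the 1061 within 10 kb. The same 60-base sequence spotted under another name had r = 0.40 over 25 pairs, and probes sharing 30 or more bases 0.49 over 72. Spink3-/-XKI/+ minus Spink3+/+ gave 0.36, 0.15, 0.11, 0.19, 0.77 and 0.30 in the same order. These are descriptions across probe pairs that share the 6 arrays and, in each interval, their members.

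**Figure D5:**
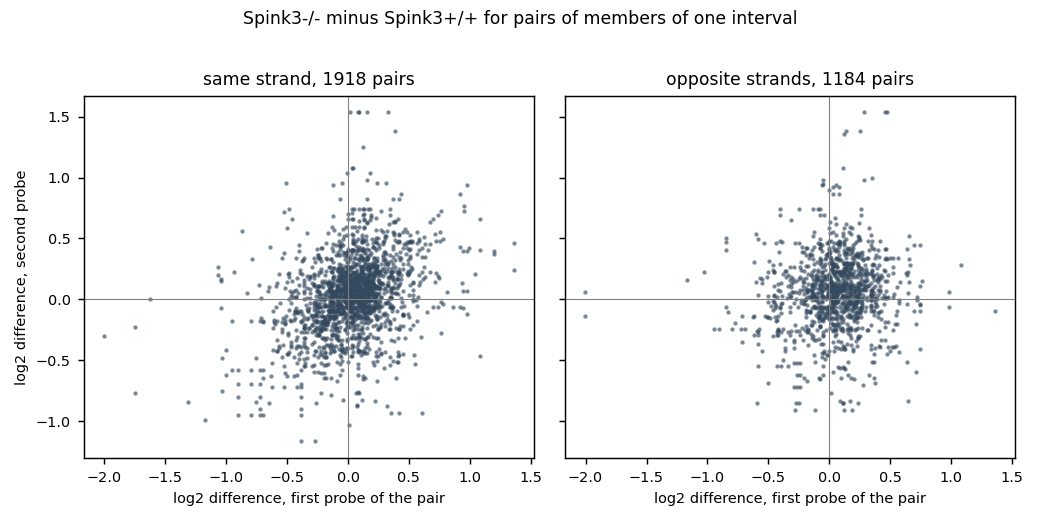
Difference Spink3-/- minus Spink3+/+ (log2) of 1 member (x axis) against another member of its interval (y axis), for pairs above background on all 6 arrays, 1918 on the same strand and 1184 on opposite strands. The cloud on the left leans along the diagonal (r = 0.36) and that on the right leans less (r = 0.09).

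Identical probes set the scale for these values. In 76 cases an interval probe had the same 60 bases as a probe of another name, of which 29 were detected by both probes, 44 by neither and 3 by 1 of them. Of the 278 same-strand pairs that share 30 or more bases, 93 were both members, 146 were both not, and 39 had 1 member. The member of chr3:100363012-100369462 and the identical probe named Man1a2, a mannosidase gene of glycoprotein processing, differed by -0.55 and -0.49 in Spink3-/-. In contrast, the member of chr3:21964899-21974524 differed by -0.49 and its identical partner by 0.63. The median gap between the differences of the 25 identical pairs was 0.12.

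As a whole, members were shifted slightly upwards in the genotypes without Spink3. Of the members above background on all 6 arrays, 58.9% were higher in Spink3-/- than in Spink3+/+, 63.5% in Spink3-/-XKI/+ than in Spink3+/+, and 57.6% in Spink3-/-XKI/+ than in Spink3-/-. Over all such probes the shares were 51.7%, 55.5% and 54.6%. The median difference over the 4101 members was 0.05, 0.11 and 0.05, against 0.01, 0.05 and 0.04 over all tested probes. The median member level ran from -0.92 and -0.75 in Spink3-/- to -0.87 and -0.88 in Spink3+/+ and -0.87 and -0.77 in Spink3-/-XKI/+, so the Spink3-/- arrays lay on either side of the others. With the row of the slide as a block the medians turned to -0.06, -0.15 and -0.07, and the share of higher members fell to 41.6%, 38.4% and 40.8%. Only Spink3-/- has an array in each row, and no row holds both Spink3+/+ and Spink3-/-XKI/+. That fit thus rests on single Spink3-/- arrays and cannot decide whether the shift holds within the rows. A shift by genotype and 1 by row cannot be told apart here.

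Members with an unadjusted p under 0.05 in limma made up 6.68% in Spink3-/- minus Spink3+/+, 7.05% in Spink3-/-XKI/+ minus Spink3+/+ and 6.10% in Spink3-/-XKI/+ minus Spink3-/-. Over all tested probes the same share was 4.93%, 6.8% and 6.5%. For both genotypes without Spink3 minus Spink3+/+ it was 7.85% against 5.9%. Among members above background on all 6 arrays it was 3.12%, 3.79%, 3.02% and 4.30%. Over all probes above background on all 6 arrays it was 2.92%, 4.79%, 4.89% and 3.63%, so members lay on either side of that share.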

How the data were processed

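Total RNA of 6 whole pancreas samples was labelled with Cy3 and hybridised to 1-colour Agilent arrays, per the labels. The deposited intensity is the processed signal of Agilent Feature Extraction 10.7.3.1, per the submitters' processing notes, a background-subtracted and detrended linear value with no scaling between arrays, and per the file headers the probes are placed on mm9. The value table of the series, deposited by the authors, held the same intensity for each of the 62976 spots of every array (medians 15.2 to 19.9), uncentred and with no ratio, so its fit repeats the main one. Column names mapped to samples with 0 left over. No saturated spot was found.

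Levels are log2 intensities from which the 75th percentile of the noncontrol spots of the same array was taken off. Spots of a probe were averaged and outlier spots left out. A probe was tested where, in 1 genotype or more, both arrays carried the scanner's flag for a signal well above background. The deposited flags are 0 or 1 per spot. The comparisons used limma version 3.58.1 (R version 4.3.3, two-sided tests by eBayes after lmFit and contrasts.fit), fitted to the 6 arrays together, with 3 residual degrees of freedom and Benjamini-Hochberg adjustment over 24818 probes, and called at an adjusted p under 0.05. The script was tested on simulated data. Input was read with data.table (version 1.17.8), pandas 2.3.3 and numpy 2.4.6, and figures drawn with matplotlib 3.10.9 in Python 3.11.15. Neighbouring genes were found by the files' own coordinates, and symbols come from RefSeq, matched by accession for 26762 probes, by symbol for 3819 and by an older symbol for 639; no RefSeq coordinate was used. Of the interval probes 118 have no coordinate of their own.

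Named were all called members, then the 5 largest rises and 5 largest falls per comparison among members whose groups did not overlap and that were above background in the higher group, the 5 highest mean levels and the intervals with most members. Intervals with several members that moved together were added after values were seen, as were interval means and the CCGCC count. The members and lists were chosen with earlier results of these data known. Alternatives were quantile and median scaling, normexp with an offset of 50, no filter or a filter on all 6 arrays, the replicate number or the slide row as a block, each array left out, 2 genotypes only, and eBayes with trend and robust. The replicate numbers do not pair the samples: the replicate differences of 2 genotypes correlated at -0.040, 0.19 and 0.0067 over all tested probes. No probe was named as a lincRNA by prefix, so that planned comparison group was empty. The number of arrays, 2 per genotype, limits the precision.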

Additional observations from a re-analysis of the deposited data

How the results depend on the processing

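The series value table gave the same values throughout. The counts below are of members alone, without those over all probes of the same fits. They do not show whether members gained or lost calls more than other probes did. In Spink3-/- minus Spink3+/+ the 6 called members became 0 with normexp background correction, with no filter on dim probes, with probes above background on all 6 arrays, with the slide row as a block and with only the 2 genotypes compared, and 1 with trend and robust eBayes, and ranged from 0 to 2 with 1 array left out. In Spink3-/-XKI/+ minus Spink3+/+ the 1 call became 6 with quantile normalization and 8 with median scaling, 0 with normexp, no filter, all 6 arrays, slide row or trend and robust eBayes, and ranged from 0 to 4 with 1 array left out. In Spink3-/-XKI/+ minus Spink3-/- the 0 calls became 2 with quantile and 3 with median scaling, and 0 remained with any array left out. For both genotypes without Spink3 the 4 calls became 0 with normexp, no filter, all 6 arrays, slide row and trend and robust eBayes, and ranged from 0 to 5 with 1 array left out. With all 6 arrays required, each called member is no longer tested. With the replicate number as a block, although it pairs no samples, the counts were 0, 3, 0 and 3, and 3 of the 11 calls named were kept. Quantile and median scaling kept 11 of 11. For the other losses the cause was not tested.

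Over the named members, 505 values kept direction and side of the threshold, 117 lost and 13 gained a call, and 1 reversed. The reversed value was that of the member opposite to Tug1, which went from 1.70 to -1.93 with the slide row as a block. Most of the 505 were not calls in the main fit and stayed uncalled. Only quantile scaling, median scaling and the series value table kept all 11 calls, and no other setting kept more than 3. With the scanner's weaker flag, signal above 0 beyond error, 6680, 6677 and 7773 interval probes were detected in Spink3+/+, Spink3-/- and Spink3-/-XKI/+, and 8522 in any. Over all tested pairs, r with the nearest tested gene probe, on either strand, was 0.075, 0.062 and 0.037 in the 3 pairwise comparisons, and 0.14, 0.12 and 0.10 within 10 kb. No scaling moved the median of all probes by 0.1. Where a member is at background in a genotype, the arrays' floors of -3.01 to -2.13 limit its fold to a bound.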
